A study of Mus musculus with 2 samples.

Results

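Expression of 10 mouse genes of the MHC class II presentation pathway was examined in single spleen cells. The genes were taken by symbol (H2-Aa, H2-Ab1, H2-Eb1, H2-DMa, H2-DMb1, H2-DMb2, H2-Oa, H2-Ob, Cd74 and Ciita) from the 30457 genes listed in either of 2 read-count tables, and each of the 10 had 1 row in both tables. Both libraries came from female C57BL/6J mice with a subcutaneous Lewis lung carcinoma, a transplanted tumour line, that were 10 weeks old when the tumour cells were injected and were given an antibody against CD4 on days 5 and 9 (200 μg each). The spleen cells, a pool from 3 mice harvested on day 12, had been stored frozen before 2000 of them were put on a single BD Rhapsody cartridge, which isolates cells in nanowells with barcoded beads. The beads were then divided between TAS-Seq, which amplifies cDNA from a homopolymer tail added by terminal transferase, and the manufacturer's BD WTA kit, which uses random priming. There was no untreated or tumour-free group, and each method gave 1 library, so no test was run and every interval below covers counting error only.

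MHC class II molecules carry peptides from the endosomal compartment to the cell surface, where CD4 T cells read them. H2-Aa and H2-Ab1 encode the chains of I-A, and H2-Eb1 encodes the beta chain of I-E. The invariant chain Cd74 escorts new class II molecules and blocks their groove, H2-DM (H2-DMa with H2-DMb1 or H2-DMb2) exchanges its remnant for peptide, and H2-O (H2-Oa and H2-Ob) restrains H2-DM. Ciita is the coactivator that switches these genes on. In the spleen the pathway is known for its constant activity in B cells and dendritic cells, whereas resting mouse T cells and NK cells lack it.

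The 8 H2 genes lie within chr17:34092340-34316674 of mouse build GRCm38, whereas Ciita lies at chr16:10480059-10528418 and Cd74 on another chromosome. Promoters of class II genes are known for a shared arrangement of an X box and a Y box, the latter an inverted CCAAT, on which RFX and NF-Y proteins assemble before Ciita is recruited. RefSeq promoter sequences (build GRCm38.p6, 250 bases before to 50 bases after a start) were at hand for 7 of the 10 genes. The pattern sought was GNAAC followed after 20 to 35 bases by ATTGG, on either strand and allowing overlap with other motifs. It was found in 5 of these 7 genes, in 3.05% of 27025 genes and in 2.67% of 32851 promoters. This pattern was chosen after the sequences had been seen, so the share of members that hold it is a description. The stretches are printed because they show what the genes have in common outside their expression, with the letters of the pattern in capitals, read on the strand of the gene.
H2-Aa: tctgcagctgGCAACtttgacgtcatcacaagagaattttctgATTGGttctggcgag
H2-Eb1: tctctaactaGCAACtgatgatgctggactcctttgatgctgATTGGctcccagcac
H2-DMb1: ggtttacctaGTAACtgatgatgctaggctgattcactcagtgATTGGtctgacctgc
H2-Oa: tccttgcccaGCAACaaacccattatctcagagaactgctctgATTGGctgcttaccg
H2-Ob: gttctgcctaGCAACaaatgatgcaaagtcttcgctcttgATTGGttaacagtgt
They come from chr17:34287857-34287914 (minus strand) for H2-Aa and, on the plus strand, from chr17:34305766-34305822 for H2-Eb1, chr17:34153087-34153144 for H2-DMb1, chr17:34092293-34092350 for H2-Oa and chr17:34238808-34238862 for H2-Ob. The gap between the capitals was 28 bases in H2-Aa, H2-DMb1 and H2-Oa, 27 bases in H2-Eb1 and 25 bases in H2-Ob. The promoters of H2-DMa and H2-DMb2 held ATTGG without the first part of the pattern. ATTGG alone on either strand was found in 7 of 7 members, counted by gene, and in 37.4% of all promoters.

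The TAS-Seq table held 38656790 reads and that of BD WTA 31608259 reads, counted without unique molecular identifiers, and no cell barcode occurred in both. After filtering, 732 TAS-Seq cells (median 46557 reads) and 708 BD WTA cells (median 38426 reads) remained. The 10 members together took 1.37% (TAS-Seq) and 1.75% (BD WTA) of all reads. Cells were assigned to classes by lists of 10 markers that contained no member, which gave 406 and 355 B-marker cells, 267 and 277 T-marker cells, 20 and 24 NK-marker cells, and 10 and 8 dendritic or myeloid cells in TAS-Seq and BD WTA, respectively. A marker counted as positive at 100 CPM (reads of a gene per 1000000 reads), and a class needed at least 3 positive markers. B-marker cells had a median of 9 and 7 positive B markers and a median of 0 positive T markers in either library. T-marker cells had a median of 6 and 5 positive T markers and a median of 0 positive B markers. The dendritic or myeloid class was less even, with 3 cells nearest to the conventional dendritic list, 3 to the monocyte or macrophage list and 4 to the plasmacytoid list in TAS-Seq, and 3, 4 and 1 in BD WTA.

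In B-marker cells all 10 genes were detected in both libraries. Levels are given as pooled CPM, the reads of a gene over all reads of the class. H2-Aa was at 4240.9 CPM in TAS-Seq (95% exact Poisson interval 4212.3 to 4269.7) and at 5845.4 CPM in BD WTA. H2-Ab1 was at 3241.2 and 5552 CPM, and H2-Eb1 at 2841 and 3754.6 CPM. Cd74 was at 11319 CPM in TAS-Seq and 14419.7 CPM in BD WTA. The peptide-loading genes were lower. H2-DMb2 reached 725.6 and 1446.6 CPM, H2-DMa 379.3 and 201 CPM, and H2-DMb1 185.4 and 127.3 CPM. The regulators H2-Ob and H2-Oa were at 595.4 and 241.3 CPM in TAS-Seq and at 789.1 and 147.3 CPM in BD WTA, and Ciita was at 305.9 and 217 CPM.

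**Figure D1:**
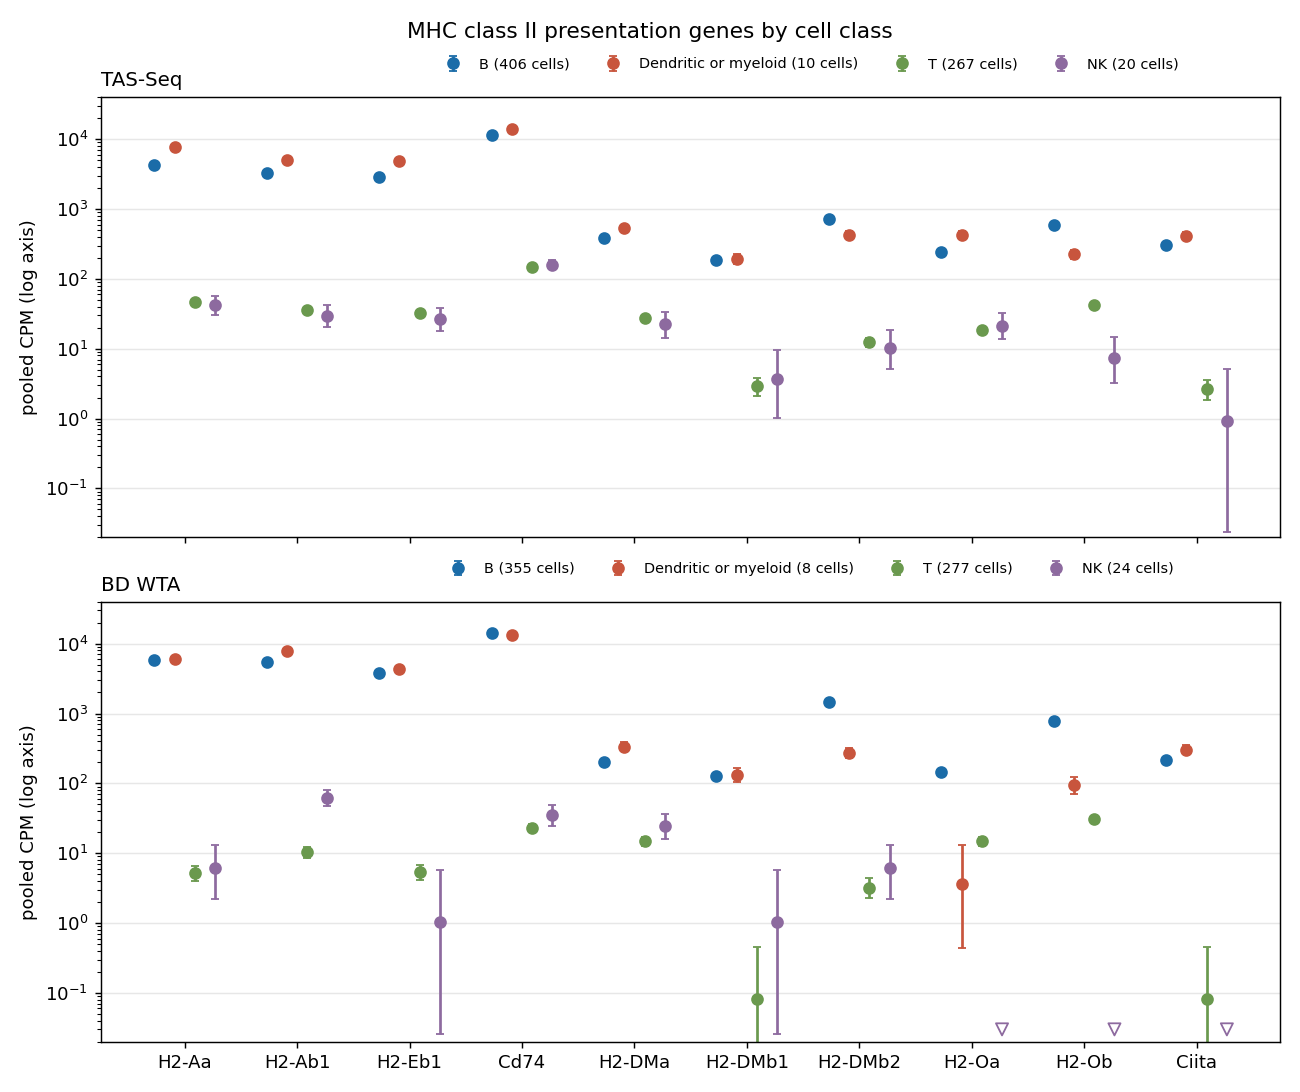
Pooled CPM (log axis) of the 10 genes in 4 cell classes, TAS-Seq above and BD WTA below. Points are class levels, bars are 95% exact Poisson intervals for counting error, and open triangles mark classes without a read. B-marker and dendritic or myeloid points lie near each other for the I-A and I-E chains and Cd74, whereas T-marker points lie lower, for example 46.8 CPM for H2-Aa in TAS-Seq and 5.21 CPM in BD WTA.

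To compare the genes with each other, levels were divided by the length of the longest annotated transcript. On this scale Cd74 led with 8027.7 CPM per kb in TAS-Seq and 10226.7 CPM per kb in BD WTA, followed in both libraries by H2-Ab1 (2674.3 and 4580.8), H2-Eb1 (1702.2 and 2249.6), H2-Aa (1315.8 and 1813.7), H2-DMb2 (489.3 and 975.4) and H2-Ob (223 and 295.5). Next came H2-DMa (189.2 CPM per kb) before H2-Oa (180) in TAS-Seq, and H2-Oa (109.9) before H2-DMa (100.2) in BD WTA, so these neighbours had no stable order. H2-DMb1 (132.1 and 90.7) and Ciita (50.9 and 36.1) were last. This order rests on the division by length, and reads need not scale with length, since the TAS-Seq protocol enriched the cDNA ends that carry the cell barcode. By CPM alone H2-Aa was second in both libraries, and Ciita stood above H2-DMa in BD WTA and above H2-Oa and H2-DMb1 in both. H2-DMb1 and H2-DMb2 are near copies. Of the 31-base words in transcripts of H2-DMb1, 31.4% also occurred in H2-DMb2, so reads could have been placed on either gene and the split between them is uncertain. For the other 8 genes, among them Cd74 on chromosome 18, at most 1.41% of words were shared with any other gene.

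The spread of levels over single B-marker cells differed by gene. For Cd74 the 5th percentile, median and 95th percentile over cells were 6200.2, 11555.4 and 18717 CPM in TAS-Seq and 6849.4, 15361.8 and 24160 CPM in BD WTA. For H2-Aa they were 1205.7, 4492.8 and 8361.6 CPM and 1522.3, 6098.6 and 11639.6 CPM. The coefficient of variation over cells was 0.338 and 0.337 for Cd74, and 0.481 and 0.490 for H2-Aa. It was larger for the less abundant genes, at 1.23 and 2.09 for H2-DMa and 1.61 and 2.89 for H2-Oa. H2-Oa had 4790 and 2177 reads in these cells, against 224733 and 213151 of Cd74. Fewer reads raise the coefficient by counting error, and that part was not separated. Every B-marker cell thinned to 20000 reads had a Cd74 read. At the same depth, H2-DMb2 was seen in 93.4% (95% exact binomial interval 90.4% to 95.6%) of B-marker cells by TAS-Seq and in 89.8% (86.0% to 92.9%) by BD WTA. H2-Ob was seen in 83.7% and 78.0%, H2-DMa in 69.1% and 40.6%, Ciita in 55.6% and 33.7%, H2-DMb1 in 56.4% and 27.9%, and H2-Oa in 51.0% and 27.6%. All 10 genes were seen together in 41 of 392 cells by TAS-Seq (10.5%, interval 7.61% to 13.9%) and in 3 of 323 by BD WTA (0.929%, interval 0.192% to 2.69%). The median cell had a read of 8 and 7 of the genes. These counts rest on single reads and include stray ones, since T-marker cells at the same depth also had reads of members.

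Across thinned B-marker cells, H2-Aa varied with H2-Ab1 at a Spearman rho of 0.40 (392 TAS-Seq cells) and 0.36 (323 BD WTA cells), with H2-Eb1 at 0.33 and 0.26, and with Cd74 at 0.41 and 0.36. Cells of a library share its amplification, so these values are descriptions. Ciita showed rho values of -0.03 and -0.02 with Cd74, but 174 of 392 and 214 of 323 cells had no Ciita read. In sparse counts such values cannot show that the genes vary apart.

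T-marker cells served as the class that should lack the pathway. Pooled levels in B-marker cells were at least 8-fold higher than in T-marker cells for 10 of 10 members in TAS-Seq, against 3.15% of 9995 genes compared, and for 10 of 10 in BD WTA, against 3.45% of 9320 genes (9 of 10 in BD WTA when clusters replaced the marker classes). The log2 ratio, with 1 CPM added to both levels, ranged from 3.64 (H2-Oa) to 6.47 (H2-Aa and H2-Ab1) in TAS-Seq and from 3.24 (H2-Oa) to 9.88 (H2-Aa) in BD WTA. The median over the members was 6.01 and 8.05, and over all genes compared 0.10 and 0.05.

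The low reads in T-marker cells differed between the libraries. Cd74 had at least 1 read in 265 of 267 TAS-Seq T-marker cells (median depth 52818 reads, against 42144 in B-marker cells) and in 113 of 277 BD WTA T-marker cells (42297 against 35313 reads). With every cell thinned to 20000 reads the shares were 91.1% (interval 87.0% to 94.3%) and 25.5% (20.3% to 31.2%). The median T-marker cell had 131.7 CPM of Cd74 in TAS-Seq, where the 5th and 95th percentiles were 49.7 and 267.8 CPM, and 0 CPM in BD WTA. H2-Aa was seen in 55.2% and 8.11% of thinned T-marker cells, H2-Ab1 in 49.4% and 8.49%, and H2-Eb1 in 44.0% and 5.41%. For Cd74 in TAS-Seq, 17.0% of thinned T-marker cells had at least 5 reads, as did 1.93% in BD WTA.

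Expressed as a share of the B-marker level, the T-marker level was below 2% for 7 of the 10 members in both libraries. In TAS-Seq it was 1.10% for H2-Aa (interval 1.02% to 1.19%), 1.10% for H2-Ab1, 1.13% for H2-Eb1 (1.03% to 1.23%), 1.30% for Cd74 (1.25% to 1.36%), 1.55% for H2-DMb1, 1.71% for H2-DMb2 and 0.855% for Ciita (0.610% to 1.17%). For 8 other B-cell genes, picked after the member values were seen, the median lay at the level of H2-Eb1, with Igkc at 1.14% and Ighm apart at 8.68%. The intervals of H2-Aa and Cd74 did not overlap, though they treat each read as independent. In BD WTA the same 7 members were between 0.0375% and 0.219%, and H2-Aa (0.0891%, interval 0.0686% to 0.114%) was again below Cd74 (0.161%, 0.143% to 0.181%). Only 1 read each of H2-DMb1 and Ciita fell in T-marker cells there, so their shares of 0.0639% (interval 0.00162% to 0.357%) and 0.0375% (0.000949% to 0.209%) are loose. The other B-cell genes had a median of 0.281%, with Ighm at 6.97%, Vpreb3 at 1.84% and Blk at 1.44%.

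H2-DMa, H2-Oa and H2-Ob stood above the rest in both libraries. H2-DMa in T-marker cells was at 27.3 CPM in TAS-Seq (7.20% of the B-marker level, interval 6.51% to 7.95%) and at 14.7 CPM in BD WTA (7.33%, interval 6.27% to 8.52%). H2-Oa was at 18.4 CPM (7.61%, 6.73% to 8.59%) and 14.7 CPM (10.0%, 8.55% to 11.6%). H2-Ob was at 42.9 CPM (7.21%, 6.66% to 7.80%) and 30.4 CPM (3.86%, 3.47% to 4.28%). None of these intervals overlapped those of H2-Aa, Cd74 or Ciita in the same library. They treat each read as independent, however, whereas reads were counted without molecular identifiers and could sit in few cells. The intervals are therefore too narrow to show how far the shares depend on single cells.

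**Figure D2:**
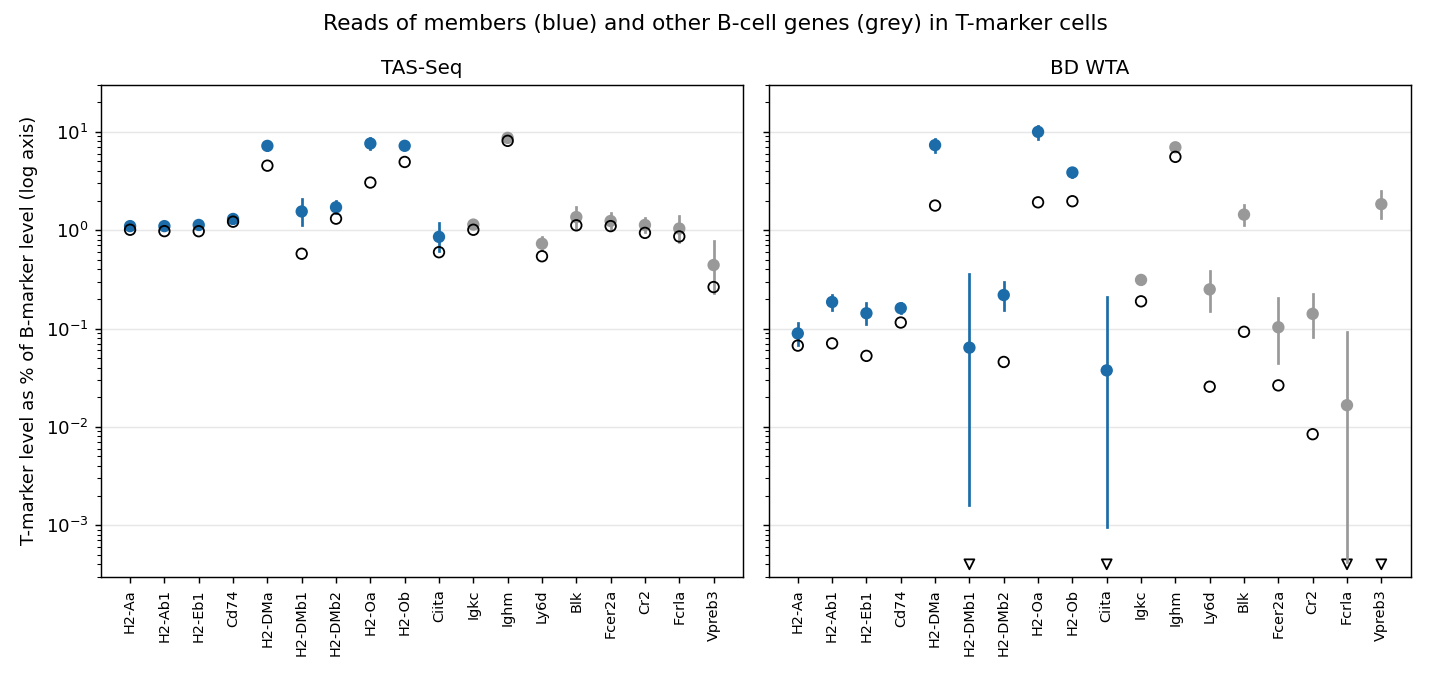
Pooled level in T-marker cells as a percentage of that in B-marker cells (log axis) for the 10 members (blue) and 8 other B-cell genes (grey), TAS-Seq on the left and BD WTA on the right. Lines are 95% counting intervals, open circles repeat the value without the 5 T-marker cells richest in the gene, and open triangles mark values that then fell to 0. H2-DMa, H2-Oa and H2-Ob lie above the other members in both panels, for example H2-Ob at 7.21% and 3.86%.

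In BD WTA the reads of H2-DMa, H2-Oa and H2-Ob sat in few cells. The 181 H2-DMa reads came from 10 of 277 T-marker cells, 181 H2-Oa reads from 10 cells and 374 H2-Ob reads from 26 cells. By contrast, 285 Cd74 reads came from 113 cells and 64 H2-Aa reads from 48 cells. The 5 richest cells held 76.2% of the H2-DMa reads, 81.2% of the H2-Oa reads and 187 of the 374 H2-Ob reads. Without these 5 cells the shares of the B-marker level were 1.78%, 1.92% and 1.97%, against 0.0670% for H2-Aa and 0.115% for Cd74. In TAS-Seq the reads were spread more widely, over 74 of 267 T-marker cells for H2-DMa, 42 for H2-Oa and 90 for H2-Ob, with 38.3%, 61.2% and 32.6% of them in the 5 richest cells. Without those the shares were 4.53%, 3.05% and 4.94%, against 1.01% for H2-Aa and 1.22% for Cd74. Reads of other B-cell genes could also sit in few BD WTA cells. The 5 richest T-marker cells held 93.7% of the 79 Blk reads, and 2 cells held all 43 Vpreb3 reads.

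The T-marker cells rich in H2-Ob were compared with the other T-marker cells for Cd74, H2-Aa and B markers. In BD WTA, 5 T-marker cells had at least 20 H2-Ob reads. Their pooled levels were 717 CPM for H2-Ob, 3.83 CPM for Cd74 and 15.3 CPM for H2-Aa, 4 of the 5 had no Cd74 read, and the B markers summed to 7.67 CPM. The other 272 T-marker cells were at 23.6 CPM for Cd74, 4.99 CPM for H2-Aa and 53.1 CPM for the B markers. Igkc, an abundant B-cell transcript, was at 157.2 CPM in the 5 cells and at 33.0 CPM in the others. In TAS-Seq, 12 T-marker cells had at least 20 H2-Ob reads, with 453 CPM of H2-Ob, 123.4 CPM of Cd74 and 161.8 CPM over the B markers, next to 148.7 and 150.4 CPM in the other 255 cells. T markers summed to 5871.6 CPM in these 12 cells and 5551.6 CPM in the others. The levels of Cd74 and of the B markers in them were therefore far from those of B-marker cells. The 5 BD WTA cells with at least 20 H2-DMa reads had 533.1 CPM of H2-DMa with 7.73 CPM of Cd74, and the 4 with at least 20 H2-Oa reads had 647.9 CPM of H2-Oa with 19.8 CPM of Cd74. B markers summed to 7.73 CPM in the former and to 113.8 CPM in the latter, next to 53.1 and 51.1 CPM in the other T-marker cells.

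A level was then set for each gene and library above which a cell was counted as carrying its own transcripts, namely the 99th percentile of T-marker cells together with at least 5 reads. For Cd74 it was 582.9 CPM in TAS-Seq and 598 CPM in BD WTA, and 405 of 406 and 355 of 355 B-marker cells were over it. For H2-Aa, 402 of 406 (interval 97.5% to 99.7%) and 350 of 355 (interval 96.7% to 99.5%) were over. H2-Ab1 gave 97.5% and 98.3%, H2-Eb1 97.8% and 96.6%, and H2-DMb2 87.2% and 85.1%. The other members passed it less often. H2-Ob did so in 38.4% and 40.6%, H2-DMa in 29.1% and 13.5%, and H2-Oa in 117 of 406 and 39 of 355 cells. H2-DMb1 passed in 40.1% and 22.5%, and Ciita in 47.3% and 29.0%. For H2-DMb1 and Ciita the level was 37.1 and 26.2 CPM in TAS-Seq but 0 CPM in BD WTA. There only the minimum of 5 reads applied, so these shares are not set alike. For H2-DMa, H2-Oa and H2-Ob the level itself was set by the few read-rich T-marker cells (709.8 and 785.1 CPM for H2-Ob), which lowers these shares. The Cd74 level of BD WTA rested on few cells as well. There the T-marker median was 0 CPM and the 95th percentile 84.4 CPM (131.7 and 267.8 CPM in TAS-Seq). The 3 BD WTA T-marker cells with at least 20 Cd74 reads pooled at 1177.2 CPM of Cd74. They also held 804.4 CPM over the B markers and 627.8 CPM of Igkc. The near-equal Cd74 levels therefore do not show equal stray reads in the libraries. With 5 reads among 20000 as the limit instead, H2-Ob passed in 67.1% and 65.6% of B-marker cells and H2-DMa in 48.2% and 27.9%. Members over the limit in at least 50% of B-marker cells were then 6 in either library instead of 5, and with the 95th percentile of T-marker cells 7 in TAS-Seq and 6 in BD WTA.

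**Figure D3:**
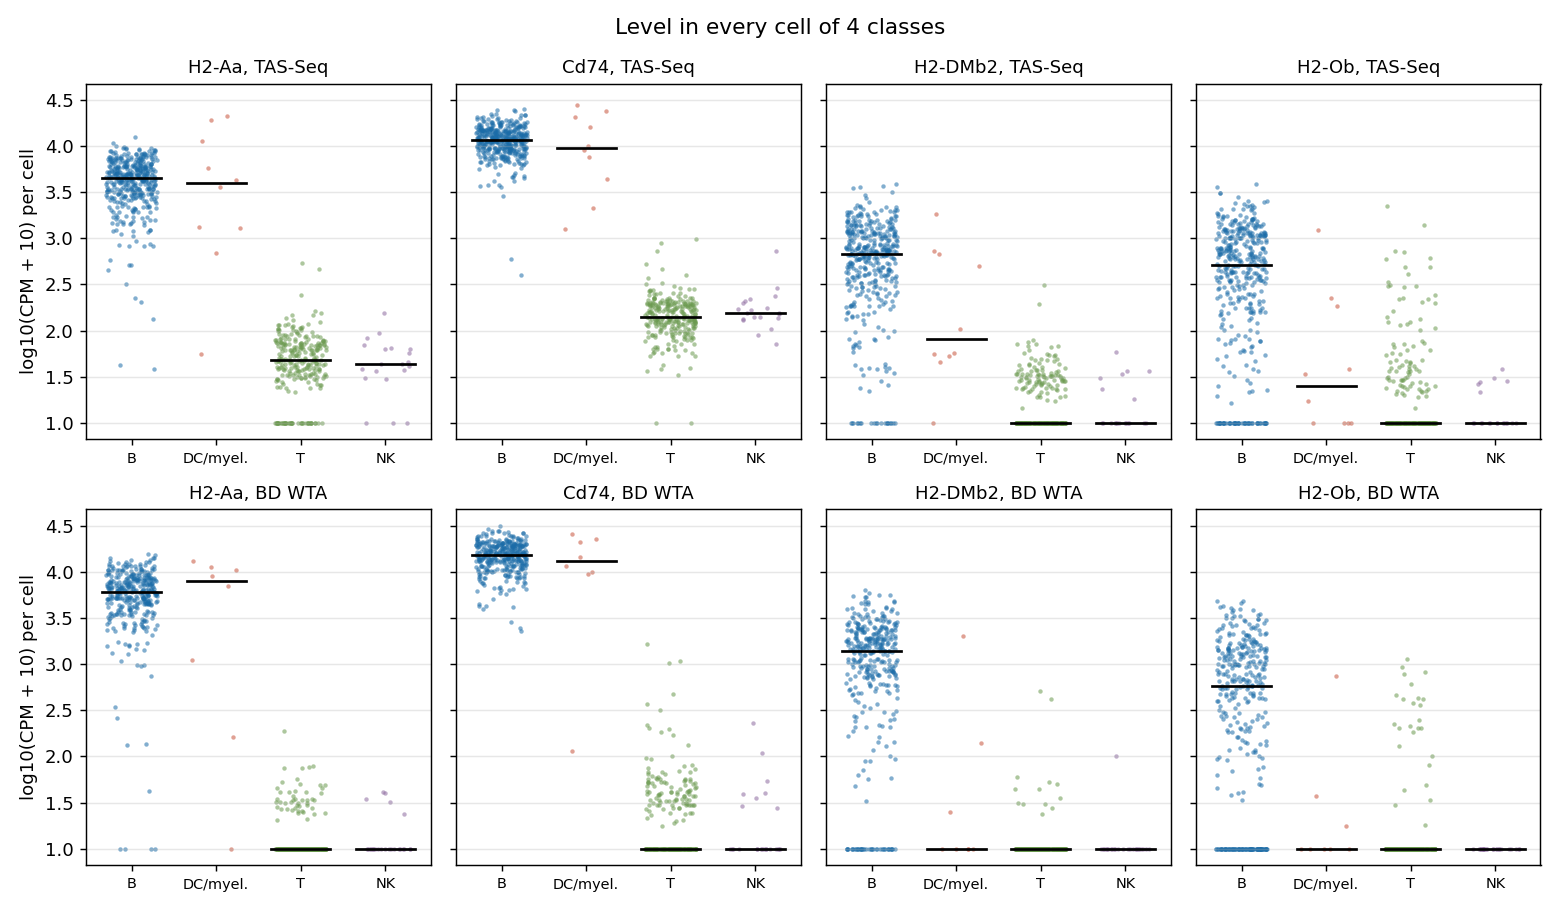
Level of H2-Aa, Cd74, H2-DMb2 and H2-Ob in every cell, as log10(CPM + 10), in B-marker, dendritic or myeloid (DC/myel.), T-marker and NK-marker cells, TAS-Seq above and BD WTA below. Each point is a cell and black lines are medians. T-marker and NK-marker cells form a band of low Cd74 in TAS-Seq (T-marker median 131.7 CPM) that is absent in BD WTA (median 0 CPM), and some T-marker cells reach B-cell levels of H2-Ob.

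Levels in NK-marker cells were low, and only some members could be compared with T-marker cells. Of 8 members that passed the filter on low values in TAS-Seq, 1 differed by at least 2-fold, against 49.5% of 9518 genes compared. H2-Aa was at 41.9 CPM in NK-marker cells and 46.8 CPM in T-marker cells, and Cd74 at 159.3 and 147.3 CPM. The exception was H2-Ob, with 8 reads (7.45 CPM) in NK-marker cells and 42.9 CPM in T-marker cells, a log2 ratio of -2.38 (counting interval -3.74 to -1.54). H2-Ob had a read in 6 of 20 NK-marker cells and in 90 of 267 T-marker cells. The 12 T-marker cells with at least 20 reads pooled at 453 CPM and the other 255 at 19.3 CPM. The size of this ratio therefore depends on few read-rich T-marker cells, which 20 NK-marker cells may lack. With all 10 members counted, thinned cells gave 4 past 2-fold in TAS-Seq. In BD WTA, 3 of 5 members that passed differed by at least 2-fold, against 50% of 8178 genes, a share near the background. With clusters in place of the marker classes 9 of 10 members were past 2-fold. The H2-Eb1 log2 ratio then turned from -1.66, which rests on 1 read in NK-marker cells, to 4.99. H2-Ob and H2-Oa had no read among 981226 reads of NK-marker cells, which allows up to 3.06 CPM if reads are independent. In T-marker cells the reads of these genes lay in 26 and 10 of 277 cells, so their absence from 24 NK-marker cells does not show a difference. H2-Ab1 was higher in NK-marker cells, at 62.2 CPM against 10.3 CPM, and 54 of its 61 reads came from 2 of 24 cells. All 24 H2-DMa reads of BD WTA NK-marker cells came from 1 cell.

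Dendritic or myeloid cells had I-A, I-E and Cd74 levels near those of B-marker cells. In TAS-Seq, H2-Aa was at 7605.9 CPM and Cd74 at 13782.9 CPM in the 10 cells, log2 ratios to B-marker cells of 0.84 (counting interval 0.80 to 0.88) and 0.28 (0.26 to 0.31). In BD WTA, H2-Aa was at 5937.5 CPM and Cd74 at 13316.2 CPM in the 8 cells, with log2 ratios of 0.02 (-0.03 to 0.07) and -0.11 (-0.15 to -0.08). Of the 10 members, 1 was past 2-fold in TAS-Seq and 3 in BD WTA, whereas 53.2% of 10098 and 64.7% of 8826 genes compared were. H2-Ob was lower in both libraries, at 226.4 CPM against 595.4 CPM in TAS-Seq (log2 ratio -1.39) and 93.5 CPM against 789.1 CPM in BD WTA (-3.06). H2-DMb2 had log2 ratios of -0.75 and -2.41. These class levels did not hold for every subset. In TAS-Seq the 3 cells nearest to the conventional dendritic list pooled at 615.2 CPM of H2-Ob (1224, 0 and 216.4 CPM in single cells). They pooled at 1026.6 CPM of H2-DMb2, against 725.6 CPM in B-marker cells. In BD WTA the 3 cells nearest to that list pooled at 9.32 CPM of H2-Ob and 52.8 CPM of H2-DMb2. H2-Oa differed between the libraries, with 428.5 CPM in TAS-Seq (log2 ratio 0.83) and 2 reads in BD WTA (-4.99, counting interval -8.37 to -3.47). At least 2-fold lower levels in this class were found for 32.8% and 45.7% of all genes compared, so the counts of members are below the background.

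Because the class was small, single cells were inspected. The 3 TAS-Seq cells nearest to the conventional dendritic list had 21190.5, 19002.9 and 11283.4 CPM of H2-Aa and 27842.9, 20611.8 and 23875.7 CPM of Cd74, all above the B-marker median of 4492.8 and 11555.4 CPM. Their Ciita levels were 925, 43.5 and 1666 CPM. The 4 plasmacytoid cells had between 1318.2 and 5806.2 CPM of H2-Aa and between 4398.8 and 15929.5 CPM of Cd74, which overlaps the B-marker range. They held at most 172.9 CPM of H2-Ob, next to a B-marker median of 499.8 CPM. The 3 monocyte or macrophage cells were low, with H2-Aa at 46.5, 1292.5 and 689.7 CPM and Cd74 at 2113.6, 1245.5 and 7632.2 CPM, and none had a read of H2-DMb1 or H2-Oa.

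In BD WTA, cells of the monocyte or macrophage list were not low throughout. Their H2-Aa levels were 12993, 11125.4, 152 and 10418.6 CPM, and their Cd74 levels 22799.3, 25881.3, 9486.6 and 11663 CPM. The cell with 12993 CPM of H2-Aa was assigned on 3 markers (Adgre1, Ms4a6c and Cd68). Itgax and Clec4a4 of the conventional dendritic list were also positive in it, so its label is borderline. Of the 3 cells nearest to the conventional dendritic list, 1 had no H2-Aa read and 103.5 CPM of Cd74 among 115944 reads. Cst3, Clec9a, Cd209a and Clec10a were positive in it, but so were Lyz2, Ms4a6c and Cd68 of the monocyte or macrophage list. The label of this cell is therefore uncertain. The other cells nearest to the conventional dendritic list had 9006.4 and 1109.4 CPM of H2-Aa. The single plasmacytoid cell had 7018.6 CPM of H2-Aa, 11029.2 CPM of H2-Ab1 and 651.7 CPM of H2-Eb1. H2-Ob was at 0 CPM in 5 of the 8 cells and reached 738.9 CPM in 1.

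**Figure D4:**
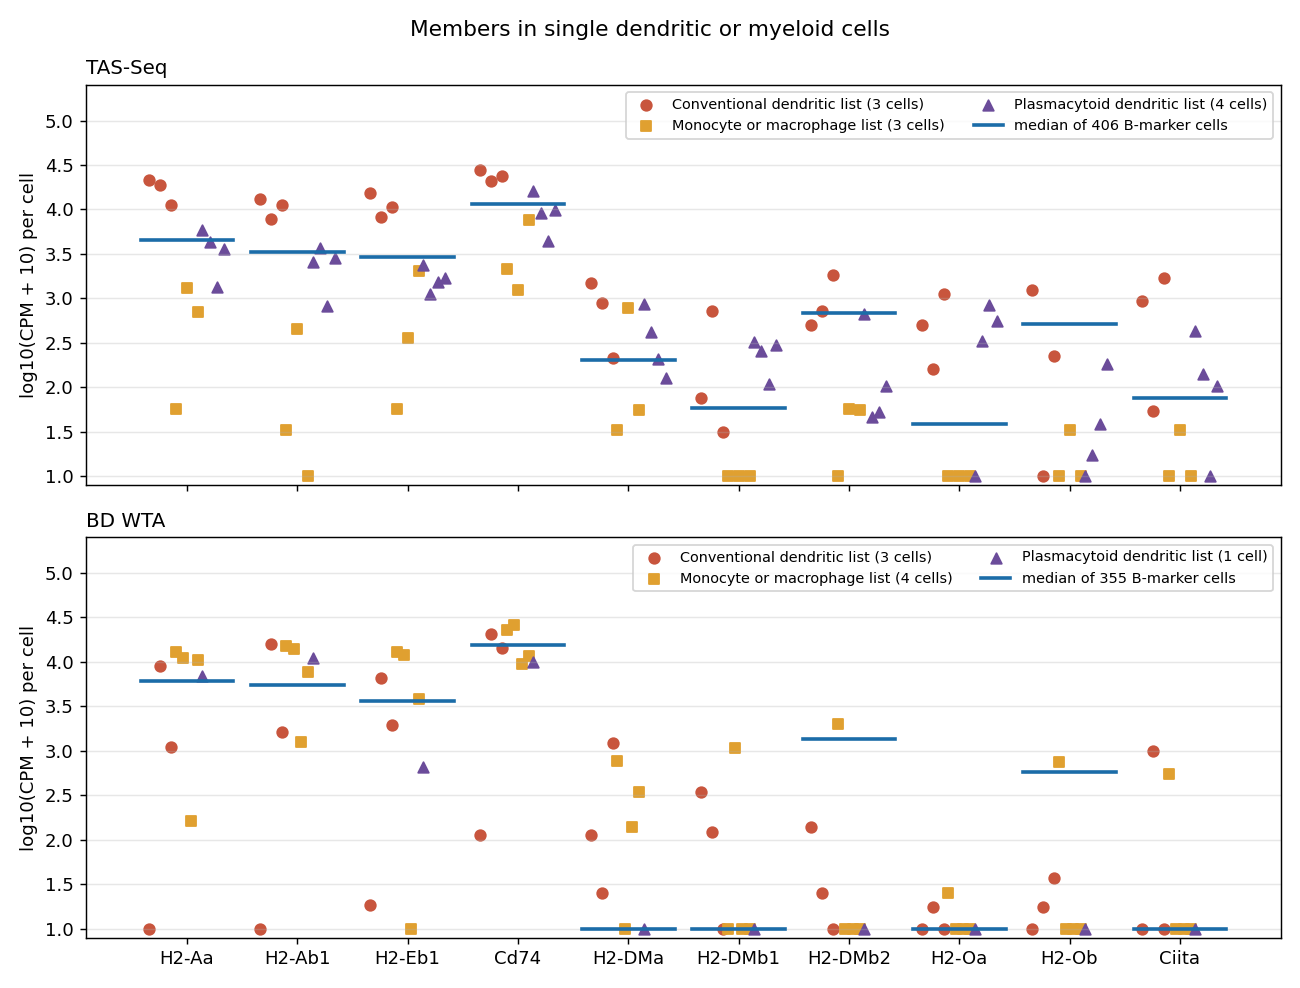
Level of each member in single dendritic or myeloid cells, as log10(CPM + 10), TAS-Seq above and BD WTA below, with symbols for the marker list nearest to the cell and blue lines for the median of B-marker cells. In TAS-Seq the conventional dendritic symbols lie above the B-marker line for H2-Aa (lowest 11283.4 CPM) and the monocyte or macrophage symbols below it (highest 1292.5 CPM). In BD WTA most symbols for H2-DMb2, H2-Oa and H2-Ob lie at the lowest position, that of cells with 0 CPM.

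Some of the cells with the most class II RNA were outside these classes. The summed level of the 10 members reached 81940.4 CPM in a TAS-Seq conventional dendritic cell and 80571.2 CPM in a TAS-Seq cell called mixed, against 47979.5 CPM in the highest B-marker cell. In BD WTA it reached 88141.9 and 92971.6 CPM in 2 cells called mixed, against 67643.7 CPM in the highest dendritic or myeloid cell and 63079.8 CPM in the highest B-marker cell. None of these 3 mixed cells had a positive B or T marker. The BD WTA pair were positive for Xcr1, Clec9a and Cst3, conventional dendritic markers, with Cst3 at 25271.4 and 38504.5 CPM, and also for Tyrobp, which was on the NK list although myeloid cells carry it, 1 of them for globin genes as well. With the NK list shortened by Tyrobp, a setting chosen after these cells were seen, 1 mixed cell joined the dendritic or myeloid class in each library, and members past 2-fold rose from 1 to 3 in TAS-Seq and stayed at 3 in BD WTA. H2-Ob then had log2 ratios to B-marker cells of -1.43 and -2.87. In BD WTA, 6 of 9 cells without enough markers had over 10000 CPM of the members, as did 1 of 3 in TAS-Seq.

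Neutrophils held little class II RNA. The summed member level was between 198.5 and 351.5 CPM in the 9 TAS-Seq neutrophils and between 0 and 812.2 CPM in the 9 BD WTA neutrophils, and in T-marker cells its median was 284.8 and 28.2 CPM. Neutrophil, T-marker and NK-marker cells of TAS-Seq therefore had nearly the same low level (median 301.4, 284.8 and 295.9 CPM). Plasma cells, which are known to switch off Ciita, were found in BD WTA only. Their 4 Cd74 values were 4210.4, 3187.7, 1786.5 and 2458.6 CPM, below the 5th percentile of B-marker cells but all over the level set from T-marker cells. The summed member level was between 1793.4 and 6012.4 CPM. H2-Aa was at 941.9 and 875 CPM in 2 of the cells and at 0 in the other two, H2-Ab1 at 615, 1111, 6.9 and 12.9 CPM, and there was no read of H2-DMb1, H2-DMb2, H2-Oa or Ciita.

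B-marker cells were next divided by Fcer2a, the CD23 gene of follicular B cells. Fcer2a was positive in 275 TAS-Seq and 212 BD WTA cells, and 63 and 42 cells without it were marginal zone-like, with at least 2 of Cr2, Cd9, Dtx1, S1pr3, Cd1d1 and Tm6sf1. H2-Ob was higher in the cells with Fcer2a in both libraries, at 706.6 against 334.3 CPM in TAS-Seq (log2 ratio 1.08, counting interval 1.00 to 1.16) and 883.5 against 445.5 CPM in BD WTA (0.99, interval 0.90 to 1.07). Its median over cells was 619.2 against 216.6 CPM and 617.9 against 332.9 CPM, with overlapping interquartile ranges (214.9 to 1105.6 and 19.7 to 522.4 CPM in TAS-Seq). It was the only member past 2-fold in TAS-Seq, where 17.5% of 9513 genes were, and no member was in BD WTA, where 24.7% of 7236 genes were. As a mean over cells, H2-Ob too stayed under 2-fold in TAS-Seq, where 0 members then passed. H2-Oa, its partner, had log2 ratios of -0.01 and -0.05. Cd74 (0.43 and 0.41), H2-Ab1 (0.52 and 0.36), H2-Eb1 (0.33 and 0.45) and H2-Aa (0.64 and 0.31) were higher with Fcer2a in both libraries. H2-DMb2 (0.67 and 0.17), Ciita (0.77 and -0.06) and H2-DMb1 (0.76 and -0.02) differed more between the libraries than these.

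The design also allows the methods to be compared on B-marker cells of the same pool. No member was past 2-fold, whereas 17.7% of 9852 genes compared were. H2-DMb2 was nearest, at 725.6 CPM in TAS-Seq and 1446.6 CPM in BD WTA, a log2 ratio of -0.99 (counting interval -1.03 to -0.96), which passed 2-fold with TMM scaling (-1.09). At the other end H2-DMa had a log2 ratio of 0.91 (0.85 to 0.98), which was past 2-fold as a mean over cells (1.02) or with thinned cells (1.15). Levels were lower in TAS-Seq for H2-Ab1 (-0.78), H2-Aa (-0.46), H2-Ob (-0.41), H2-Eb1 (-0.40) and Cd74 (-0.35), and higher for H2-Oa (0.71), H2-DMb1 (0.54) and Ciita (0.49). The median over the members was -0.38 and over all genes compared 0.12. The 4 members with a mean of both libraries between 100 and 500 CPM were all higher in TAS-Seq and the 6 above that were all lower. Among all genes, the median log2 ratio was 0.05 for 1467 genes between 100 and 500 CPM, 0.04 for 201 genes between 500 and 2000 CPM, and -0.25 for 57 genes over 2000 CPM. With 1 library per method, differences between the methods and between the libraries cannot be told apart.

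**Figure D5:**
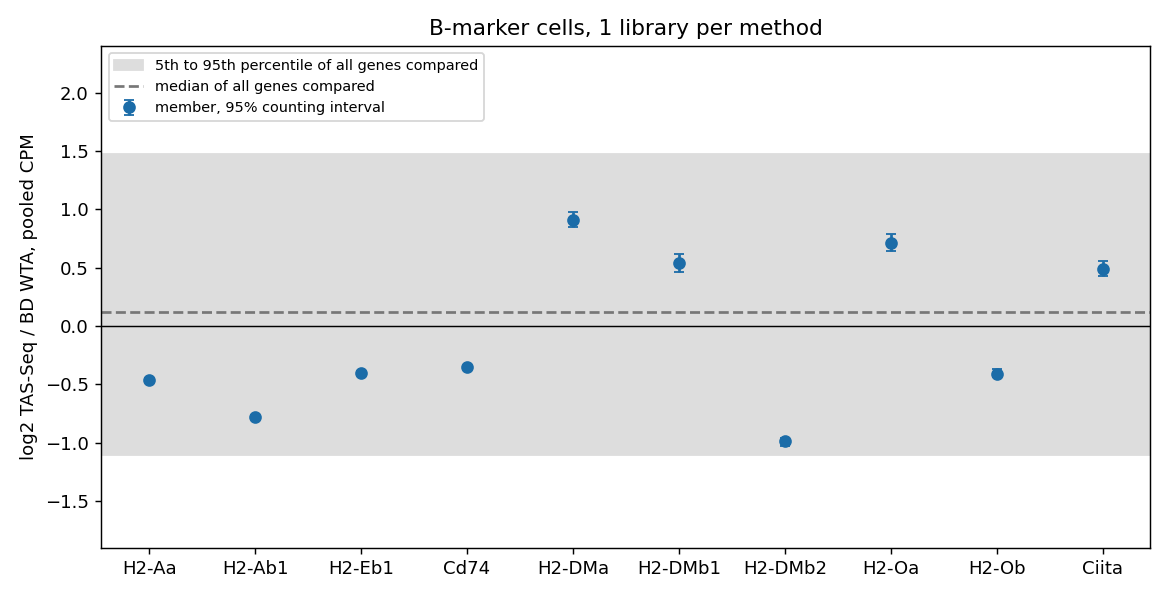
log2 ratio of pooled CPM in B-marker cells, TAS-Seq over BD WTA, for the 10 members. Points are ratios with 95% counting intervals, the grey band spans the 5th to 95th percentile of all genes compared (-1.11 to 1.47) and the dashed line is their median (0.12). All members lie inside the band, from H2-DMb2 (-0.99) to H2-DMa (0.91).

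A list of 35 symbols of other genes of the pathway was examined, of which 32 were listed and 28 passed the filter on low values in B-marker cells. Between the methods, 2 were at least 2-fold higher in TAS-Seq (Rfxap, an RFX subunit, with a log2 ratio of 1.61, and Ctsd, a lysosomal protease, with 1.85; 11.7% of all genes were that much higher) and 2 lower (Nfyc, an NF-Y subunit, with -1.10, and the repressor Bcl6 with -1.07; 6.04% of all genes). The BD WTA levels of Rfxap and Ctsd rested on few cells, with 106 reads in 1.97% and 199 reads in 3.66% of B-marker cells. With means over cells 1 gene was past 2-fold in each direction. The median of the 28 genes was 0.12, equal to that of all genes. H2-Ea, the alpha chain of I-E, which C57BL/6 mice are known not to express, had no read among the B-marker cells of either library, which allows up to 0.151 CPM in TAS-Seq and 0.203 CPM in BD WTA. H2-Eb2, a relative of H2-Eb1, was at 165.1 and 120.1 CPM. At least 2-fold higher levels in B-marker than in T-marker cells were found for 15.6% and 16.4% of all genes compared. Among the 28 genes, Pax5 and Ebf1 were also on the B marker list, so their difference followed from how the class was set. With these included, 18 of the 28 genes were that much higher in each library. They included the protease Ctss, which trims the invariant chain (609.4 and 845 CPM in B-marker cells), the reductase Ifi30 (240.5 and 255.9 CPM) and the ubiquitin ligase Marchf1, which removes class II from the surface (203.4 and 166.3 CPM). Of the general factors that Ciita works with, Rfx5, an RFX subunit, was higher in B-marker than in T-marker cells in both libraries (46.3 against 8.50 CPM in TAS-Seq and 47.8 against 20 CPM in BD WTA, log2 ratios of 2.32 and 1.21). Rfxap went the other way in BD WTA, at 7.17 CPM in B-marker and 26.7 CPM in T-marker cells (log2 ratio -1.76, and -0.10 in TAS-Seq). With a read in 1.97% of the BD WTA B-marker cells, this value is loose. Rfxank, Creb1, Nfya, Nfyb and Nfyc stayed under 2-fold in both libraries. Rfxank was at 24.3 and 20.2 CPM in B-marker cells and at 20 and 11.3 CPM in T-marker cells, and Nfyb at 59.5 and 56.6 against 68.5 and 71.2 CPM.

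Over the 4 classes of both libraries (8 points that share libraries), the genes most like the mean member profile among 4785 genes were Prkcd (Pearson r of 0.997), Cd180 (0.996), Irf5 (0.991), Ptprj (0.991) and Pou2f2 (0.988). Of the members, H2-Oa (0.733) and H2-Ob (0.898) were least like that mean, and the other 8 were between 0.974 (H2-Ab1) and 0.994 (H2-Aa and H2-DMb1). Cd180, a surface receptor of B cells and dendritic cells, was at 281.9 and 402.7 CPM in B-marker cells, 434.9 and 229.2 CPM in dendritic or myeloid cells and 1.70 and 0 CPM in T-marker cells. A high r does not mean a difference of like size. Prkcd was at 113.7 and 119.6 CPM in B-marker cells and at 28.4 and 19.0 CPM in T-marker cells, a smaller difference than for Cd180.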

How the data were processed

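The deposited tables hold whole-number counts of reads per gene and cell barcode, which the authors made without molecular identifiers or normalization. The submitters' processing notes name cutadapt 2.10, Bowtie2 2.4.2 and R 3.6.3. The study describes mapping to transcript sequences of GRCm38, so that near copies can share reads, and keeping barcodes above the inflection point of read totals. It also describes a background subtraction that is not stated for these tables. Cells were required to show 500 genes or more and no more than 0.25 of their reads from mitochondrial genes. A cell took the class with the largest share of its markers at 100 CPM or more, if at least 3 were positive and no other class reached 0.5 of that share. Counts were pooled per class, and log2 ratios used a prior of 1 CPM. Genes entered the background with at least 10 CPM and 10 cells. Shares at equal depth used cells thinned to 20000 reads. The named genes are the 10 members, the 5 genes with the most similar profile (log2 of CPM + 10, at least 50 CPM) and listed pathway genes past 2-fold. Other genes were named after their values were seen, to set the members against. Transcript lengths came from GENCODE release M21. Members and lists were chosen with earlier results of these data known. Groups came from the labels. With 1 library per method no test was possible, and intervals are exact Poisson or exact binomial. Scrublet (scanpy 1.11.5) called 3 and 4 doublets, which were kept. Alternatives used edgeR 4.0.16 for TMM factors, and clusters made without the members. The ratio, class and thinning steps were tested on simulated data.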

Additional observations from a re-analysis of the deposited data

Results flagged for a closer look

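H2-Oa was picked out because its difference between dendritic or myeloid and B-marker cells went in opposite directions in the libraries, with a log2 ratio of 0.83 over 10 TAS-Seq cells and of -4.99, resting on 2 reads, over 8 BD WTA cells. Cd74 met the same rule with 0.28 and -0.11, differences that are small next to the range of single cells (1245.5 to 27842.9 CPM in TAS-Seq and 103.5 to 25881.3 CPM in BD WTA). The difference between the libraries was not tested for either gene, and the mix of dendritic, monocyte and plasmacytoid cells in the class differed between them.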

How the results depend on the processing

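No paired analysis was possible because a single library stood for each method, so that no result came from a test. Of 109 recalculated main values, 85 stayed within their limits and 24 moved, and none reversed. Of 1077 other recalculated values, 759 stayed, 317 moved and 1 reversed. Members past 2-fold between the methods rose from 0 to 1 with the mean of per-cell CPM, without mitochondrial genes in the total, with clusters, with thinned cells and with TMM factors. Members past 2-fold between NK-marker and T-marker cells in TAS-Seq rose from 1 to 3 with the mean of per-cell CPM and to 4 with thinned cells. With markers at 50 CPM, with 4 markers or with a prior of 0.1 CPM they were 2. In BD WTA they rose from 4 (with low-level members counted) to 9 with clusters. Under the clusters the H2-Eb1 log2 ratio turned from -1.66, which rests on 1 read in NK-marker cells, to 4.99. Dendritic or myeloid members past 2-fold in TAS-Seq rose from 1 to 3 with the NK list shortened by Tyrobp. Pathway genes past 2-fold fell from 4 to 2, and members past 2-fold between B subsets in TAS-Seq from 1 to 0, with the mean of per-cell CPM. The share of T-marker cells with Cd74 was 74.9% and 6.56% at 2 reads, 17.0% and 1.93% at 5 reads, 1.93% and 0.386% at 10 reads, 72.7% and 11.9% at 10000 reads per cell, and 99.3% and 40.8% without thinning, in TAS-Seq and BD WTA. The causes of these shifts were not tested, other than the read minimum and depth, which set the share by construction. At least 8-fold higher levels in B-marker than in T-marker cells were kept by 10 members under every alternative run, apart from the BD WTA clusters with 9. No value for dendritic or myeloid cells could be had from clusters, since none was named for that class, and TAS-Seq had no NK cluster. A member without a read in BD WTA NK-marker cells could still be at up to 3.06 CPM at this depth, if reads are independent.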
